A study of Mus musculus with 3 samples.

Results

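A total of 8 SOX genes other than Sox2 that act in glia and in neurogenesis were examined for accessible chromatin in Müller cells of the mouse retina. They are Sox9 and Sox8 of the SoxE group, Sox4, Sox11 and Sox12 of the SoxC group, and Sox5, Sox6 and Sox13 of the SoxD group. The genes were chosen by name, and they make up 8 of the 21728 protein-coding genes on the autosomes and X. For each gene, the strongest peak within 1 kb of any of its annotated start sites was taken as its promoter peak. Peaks over 1 kb from every protein-coding start site are called distal. A distal peak was counted for a SOX gene where one of its start sites was the closest and lay no more than 100 kb away, so the counts say where peaks lie and nothing of the gene they act on.

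SOX proteins bind the minor groove of DNA through an HMG box and bend it, and members of a group share most of that box and recognise much the same short core sequence. SoxE factors hold neural precursors in a glial course, with SOX9 needed for the onset of gliogenesis, and Sox9 is a standard marker of Müller glia. SoxC factors act in newly born neurons, where SOX4 and SOX11 switch on neuronal genes and are needed for the formation of retinal ganglion cells. SoxD factors have no activation domain of their own and work with or against other SOX proteins, in cartilage as partners of SOX9.

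DNase-seq marks the places where the nuclease DNase I can cut chromatin, mostly promoters and enhancers. Primary Müller cells, the radial glia of the retina, came from B6NCrl mice 12 days after birth with males and females pooled, and the nuclei were prepared after a protocol for cultured cells, per the labels. No treatment, sort or time in culture is named. All 3 biological replicates form a single group with no control; each has a biosample label of its own and all carry the same donor label, so the SD between them may be partly technical. Peaks numbered 299964, 280967 and 184322 in replicates 1, 2 and 3, and read depth is unknown. The merged peaks gave 145262 reproducible sites, meaning regions with a peak in every replicate, of which 87518 were distal and within 100 kb of a start site. The labelled cell type was checked against markers: 12 of 12 Müller glia genes, among them Rlbp1, Glul and Aqp4, had a reproducible promoter site, against 68.3% of all protein-coding genes. Markers of mesenchymal cells were also open at 7 of 8, of ganglion and amacrine neurons and of the oligodendrocyte lineage at 7 of 12 each, and of endothelium at 5 of 8. All 12 microglia and macrophage genes had a promoter peak in replicates 1 and 2 and 1 had one in replicate 3, with summed scores of 912, 893 and 13. Replicates 1 and 2 therefore stand apart from replicate 3, and results below are also given without it where that matters. In bulk chromatin, fewer cells of a type and a weaker signal in each of them cannot be told apart.

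All 8 SOX genes had an accessible promoter. A reproducible promoter site was present at 8 of 8, against 68.3% of all protein-coding genes, and each replicate alone also had a promoter peak at 8 of 8, against 74%, 73% and 70.8% of genes in replicates 1, 2 and 3. The deposited peak score is a whole number between 1 and 150. Its meaning is not stated in the sources used here, so peaks were also ranked within each replicate. Means, SDs and comparisons between replicates use the score as deposited, whose median over peaks was 53, 44 and 42 in replicates 1, 2 and 3. Sox9 had the highest promoter score of the group and Sox4 the second in every replicate, and Sox5 and Sox13 the lowest. Sox11 came after Sox4, level with Sox6 in replicate 3. The strongest promoter peak lay above the median of all genes with one (123, 115 and 113 in replicates 1, 2 and 3) at Sox9, Sox8, Sox4, Sox11, Sox12 and Sox6, 6 of 8 in each replicate. Sox6, Sox12 and Sox8 changed places between replicates, and so did Sox5 and Sox13 at the lower end.

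**Figure D1:**
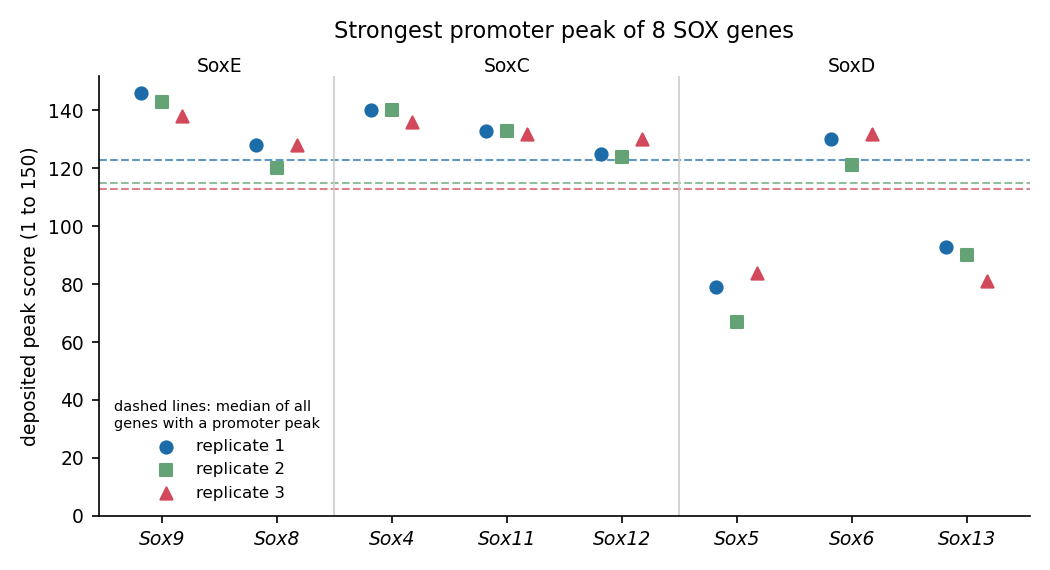
Strongest promoter peak of the 8 SOX genes, with the deposited score on the vertical axis, 1 point per replicate, and dashed lines at the median of all genes with a promoter peak in that replicate. Sox9 sits between 138 and 146 and Sox5 between 67 and 84; Sox5 and Sox13 are the genes below all 3 lines.

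Among the SoxE genes, Sox9 had a promoter among the strongest of all genes. The gene lies at chr11:112782224-112787760 on the plus strand (mm10), and the nearest protein-coding start sites are 1716 kb to the left at Kcnj2 and 784 kb to the right at Slc39a11. Its strongest site, at chr11:112782056-112782245, covers the start and scored 146, 143 and 138 in replicates 1, 2 and 3 (mean 142 ± 4.04, SD, n = 3). These scores exceeded those of 95.3%, 93.3% and 91% of genes with a promoter peak. Another reproducible site 499 bp upstream, at chr11:112781556-112781725, scored 125, 118 and 90, the lowest value being that of replicate 3; it lies in BC006965, a non-coding gene on the other strand. In the coding exon that follows, the peaks differed between replicates, lying 592 bp from the start in replicates 1 and 2 (scores of 89 and 76) and 392 bp from it in replicate 3 (score of 96).

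Sox8, a relative of Sox9 that overlaps with it in glia, lies at chr17:25565892-25570686 on the minus strand. Its promoter site at chr17:25570676-25570845 scored 128, 120 and 128 (mean 125 ± 4.62, SD, n = 3), above 57%, 55.7% and 73.4% of genes. The same site lies in 2810468N07Rik, an annotated antisense gene, so accessibility here cannot be given to Sox8 alone. The promoter sequence, credited to RefSeq on GRCm38.p6, is shown because it lies under the peak. It is written 5′ to 3′ on the strand of the gene and ends at the base before the start, with matches to the GC box GGGCGG in capitals. Promoter entries were matched by symbol for 7 of 8 genes, all but Sox9, and the Sox13 entry left no window outside the annotated leader exon.
Sox8 promoter, chr17:25570687-25570836, minus strand: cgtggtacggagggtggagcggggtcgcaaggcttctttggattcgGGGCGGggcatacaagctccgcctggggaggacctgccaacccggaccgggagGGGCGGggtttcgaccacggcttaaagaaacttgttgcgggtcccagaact
This window of 150 bases holds 13 CpG dinucleotides, more than 79.5% of the 32619 RefSeq promoter windows of that length, whose median is 4. A GC box on either strand is found in 28.8% of those windows.

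The SoxC genes, whose products act in newly born neurons, had promoter scores in the range of the SoxE genes in these glial samples. Sox4 at chr13:28948919-28953713, minus strand, had promoter scores of 140, 140 and 136 (mean 139 ± 2.31, SD, n = 3), above 80.7%, 87.9% and 87.8% of genes. The ranges of Sox9 and Sox4 overlap, although Sox9 was the higher in each replicate. Sox11 at chr12:27334264-27342574, minus strand, scored 133, 133 and 132 (mean 133 ± 0.577, SD, n = 3), the smallest spread of the group, above 65.5%, 75.3% and 81% of genes. Its strongest site, chr12:27342716-27342885, lies 142 bp upstream of the annotated start, and a neighbour at chr12:27343036-27343205 scored 101, 93 and 109. Sox12, which encodes a weaker activator than SOX4 and SOX11, lies at chr2:152393611-152398063 on the minus strand. It had 4 reproducible sites within 1 kb of its start sites, and its strongest peak scored 125, 124 and 130 (mean 126 ± 3.21, SD, n = 3). The strongest site of Sox12 was not the same in all replicates: chr2:152398116-152398285 led in replicates 1 and 2 (125, 124 and 113), and chr2:152398816-152398985, 753 bp upstream, led in replicate 3 (119, 118 and 130).

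The SoxC promoter sequences overlap these peaks and are shown in the same way, from RefSeq on GRCm38.p6. That of Sox12 overlaps its site chr2:152398116-152398285 in part and does not reach the site that led in replicate 3. Capitals mark CCAAT boxes (CCAAT) in Sox4 and Sox11 and the GC box in Sox12.
Sox4 promoter, chr13:28953714-28953849, minus strand: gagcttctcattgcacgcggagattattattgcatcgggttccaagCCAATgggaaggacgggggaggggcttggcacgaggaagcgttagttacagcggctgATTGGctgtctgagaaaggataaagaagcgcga
Sox11 promoter, chr12:27342719-27342868, minus strand: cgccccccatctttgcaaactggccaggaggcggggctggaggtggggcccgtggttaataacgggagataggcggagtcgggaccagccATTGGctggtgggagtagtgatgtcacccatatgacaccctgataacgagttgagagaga
Sox12 promoter, chr2:152398064-152398196, minus strand: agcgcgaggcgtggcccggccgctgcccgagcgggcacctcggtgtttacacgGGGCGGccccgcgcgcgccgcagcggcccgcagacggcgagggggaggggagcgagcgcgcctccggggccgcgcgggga
A CCAAT box on either strand is present in 24.6% of RefSeq promoter windows of 150 bases. The Sox12 window of 133 bases has 26 CpG, the Sox4 window of 136 bases has 9 and the Sox11 window has 7. The sequence at Sox11 ends before the RefSeq start, which differs from the start in GENCODE.

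The SoxD genes spread over several promoters, and these differed in accessibility. Start sites within 1 kb of each other were joined into 1 promoter, numbered from the most upstream start. By this rule Sox5 had 4 promoters, Sox6 had 9 and Sox13 had 3, while the SoxE and SoxC genes had 1 each. Reproducible sites lay at 3 of 4 promoters of Sox5, 4 of 9 of Sox6 and 2 of 3 of Sox13.

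Sox5, a SoxD gene with roles in cartilage and in cortical neurons, covers chr6:143828425-144781977 on the minus strand. The strongest peaks were at the second promoter, where coding transcripts start 572 kb into the gene, with scores of 79, 67 and 84 (mean 76.7 ± 8.74, SD, n = 3), above 20.1%, 19.6% and 25.1% of genes. The most upstream promoter, with transcripts annotated as non-coding, had scores of 74, 64 and 81, just below those of the second in every replicate. Its leading site was not the same in all replicates. The site chr6:144780756-144780945 (74, 48 and 35), 974 bp from the start, led in replicate 1, and chr6:144781556-144781825 (58, 64 and 81) led in replicates 2 and 3. The third, also of non-coding transcripts, scored 35, 39 and 37. No replicate had a peak at the fourth promoter, 835 kb from the first, where 4 coding transcripts start. Here peaks of similar strength lay at a coding and at a non-coding start while another coding start had none.

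Sox6, which works with SOX5 in cartilage and also acts in interneurons and in oligodendrocyte precursors, covers chr7:115470872-116038796 on the minus strand. Its strongest promoter peak scored 130, 121 and 132 (mean 128 ± 5.86, SD, n = 3), but not at the same promoter in each replicate. The seventh promoter, where a coding transcript starts 214 kb into the gene, scored 130, 121 and 88. The second promoter, of non-coding transcripts near the upstream end, scored 113, 101 and 132. At neither promoter did 1 site lead in all replicates. In the seventh, chr7:115825396-115825565 (130, 112 and 75) led in replicate 1 and chr7:115824756-115824925 (128, 121 and 88) in replicates 2 and 3. In the second, chr7:116033016-116033185 (113, 101 and 85) led in replicates 1 and 2 and chr7:116034496-116034665 (108, 95 and 132) in replicate 3. Thus the intragenic promoter led in replicates 1 and 2 and the upstream one in replicate 3. Among the 3374 genes with more than 1 open promoter, 12.9% had a leading promoter that differed in replicate 3 alone and 79.6% had the same one in all replicates; of the 3 SoxD genes, Sox6 was 1 of the former. The third promoter of Sox6, a coding one, scored 95, 90 and 97, and the ninth 60, 57 and 34. The annotated most upstream start of Sox6 had no peak in replicates 1 and 3, and the peak of 22 in replicate 2 lay nearer to the start of 1110004F10Rik, its divergent neighbour 0.601 kb away. Promoters 4, 5, 6 and 8 had no peak in any replicate.

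Sox13, a SoxD gene known from T cell development, lies at chr1:133382303-133424377 on the minus strand. The most upstream promoter led in every replicate with scores of 93, 90 and 81 (mean 88 ± 6.24, SD, n = 3), above 26.5%, 30.8% and 23.3% of genes. The third promoter, of non-coding transcripts, scored 70, 54 and 30, and the second had a peak of 35 in replicate 1 only. Replicate 3 had the lowest score at promoters 7 and 9 of Sox6 and 1 and 3 of Sox13, and the highest at promoters 1 and 2 of Sox5 and 2 and 3 of Sox6. By percentile among the peaks of a replicate, promoter 1 of Sox13 was instead lowest in replicate 1 (81.6, 84.9 and 82.2).

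**Figure D2:**
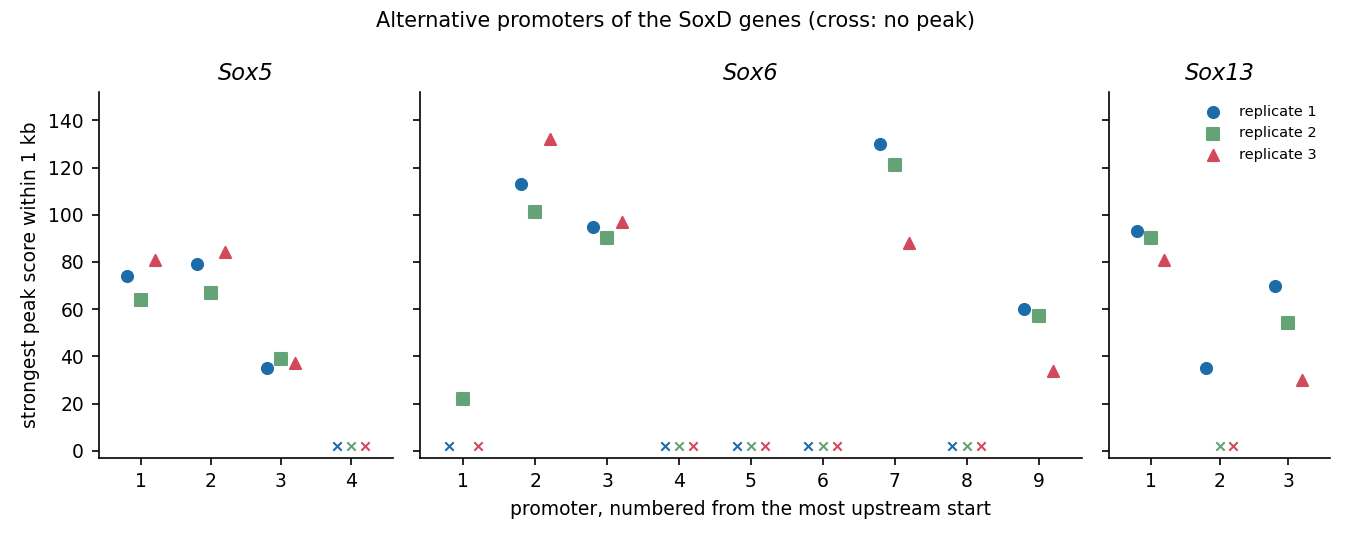
Strongest peak score within 1 kb of each promoter of Sox5, Sox6 and Sox13, with promoters numbered from the most upstream start, 1 point per replicate and a cross where a replicate has no peak. Sox6 promoter 7 scored 130, 121 and 88 and promoter 2 scored 113, 101 and 132, so that they change order in replicate 3. At each of them the strongest peak was not at the same site in all replicates.

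An accessible SoxD promoter and one without a peak are shown as RefSeq sequence on GRCm38.p6, 5′ to 3′ on the strand of the gene. The first lies under the peak at chr7:115824756-115824925, which scored 128, 121 and 88, and the second is the fourth promoter of Sox5, with no peak. Capitals mark the SOX core, ACAAAG or ACAATG.
Sox6 promoter 7, chr7:115824711-115824860, minus strand: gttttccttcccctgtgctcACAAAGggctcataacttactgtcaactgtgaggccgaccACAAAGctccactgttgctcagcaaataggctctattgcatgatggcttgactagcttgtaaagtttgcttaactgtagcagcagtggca
Sox5 promoter 4, chr6:143947107-143947256, minus strand: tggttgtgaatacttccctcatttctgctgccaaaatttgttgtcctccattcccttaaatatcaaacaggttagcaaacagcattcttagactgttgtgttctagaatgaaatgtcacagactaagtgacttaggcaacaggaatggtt
The Sox6 window has 1 CpG and the Sox5 window 0, so both are poor in CpG. A SOX core is found in 15.3% of promoter windows of this length, and a match in letters is not evidence of binding. The pair does not represent the other windows: those of Sox6 promoters 1, 4 and 6 hold a SOX core, and no peak overlaps them. The Sox6 window at chr7:115801610-115801759 has neither a core nor a peak, and that of promoter 3 has no core and a peak in replicate 3 only.

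Hotspots, the wider accessible regions deposited beside the peaks, were broadest at Sox8 and Sox12 in replicate 3. Every one of the 8 genes reached the cap of 100 on the −log10 q scale at its promoters in each replicate, so that scale does not separate them. The widest promoter hotspot of Sox8 spanned 998, 1036 and 5224 bp in replicates 1, 2 and 3, the last being wider than that of 99.9% of genes. That of Sox12 spanned 769, 883 and 3595 bp, and replicate 3 was again the widest, beyond 99.4% of genes. At Sox9 the widths were 1285, 1283 and 2409 bp. Sox6, with several promoters, was wide in every replicate, at 3000, 2194 and 2998 bp, beyond 98.8%, 98.5% and 98.5% of genes. The median over genes was 1009, 796 and 1134 bp, so replicates 1 and 2 were close to it at Sox8 and Sox12 and replicate 3 was not. Replicate 3 was also the widest at Sox11 (1949, 1202 and 2612 bp) and Sox4, while replicate 1 was at Sox5 and Sox13. The number of promoter hotspots was 2, 1 and 1 at Sox8, 4, 3 and 1 at Sox12 and 2, 3 and 1 at Sox11, but 2 in each replicate at Sox9. Whether neighbouring hotspots were joined in replicate 3 was not tested.

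Distal sites were numerous near most of the SOX genes and, with all peaks and start sites and the limit of 100 kb, most of all at Sox6, Sox5 and Sox4. This order changed under other settings, given at the end. All 8 genes had at least 1 reproducible distal site, against 67.6% of genes, and together they had 143. More than 11 such sites, the 90th percentile of all genes, were found at 6 of 8 genes, against 9.39% of all. Sox12 with 4 and Sox13 with 9 were the exceptions. The median gene had 2 and the mean was 4.03.

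The counts depend on how much genome is nearest to each gene, which ran from 17.2 kb at Sox12 to 597 kb at Sox5. Per 100 kb of that length, the density of reproducible distal sites was compared over the 18607 genes with at least 10 kb. It was above their median (4.62) at 8 of 8 SOX genes, against 50% by construction. It was 33.6 at Sox8 and 23.3 at Sox12, higher than at 99.7% and 98.5% of those genes. The Sox12 value rests on 4 sites and that of Sox8 on 13. With distal taken as over 2500 bp from every start, Sox12 kept 2 sites and Sox8 11. The density was 11.1 at Sox4 and 8.08 at Sox9. Sox6, Sox11 and Sox13 were close together, at 7.08, 7.07 and 6.73. Sox5, with the longest length, had 4.69, next to the median and below the 5.63 of all genes pooled. By group the density was 12.3 for SoxE, 9.68 for SoxC and 5.9 for SoxD genes, so the order by density was the reverse of the order by number, which was 29, 40 and 74. It was also the reverse of the order by length of nearest genome, which was 237, 413 and 1254 kb. Of all distal sites, 34.4% lay within 10 kb of a start, so a short length holds mainly the part close to starts. Densities were not matched for length, and its part in this order was not tested.

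**Figure D3:**
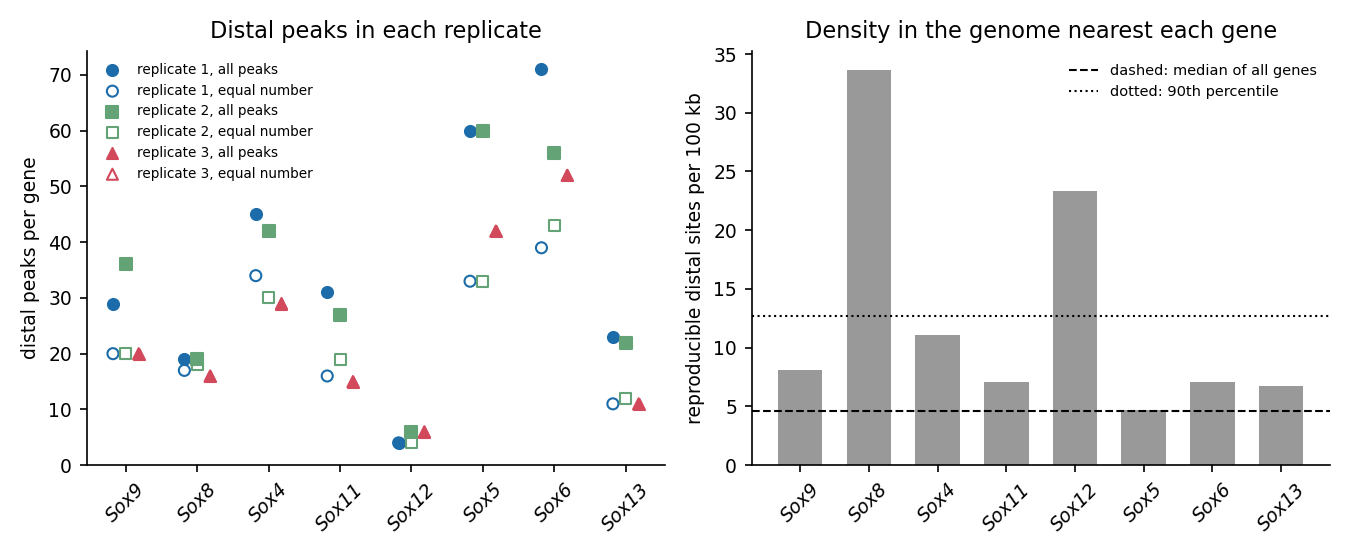
Left, distal peaks near each SOX gene in each replicate, filled with all peaks and open with an equal number of peaks from every replicate. Right, bars of reproducible distal sites per 100 kb of genome nearest to the gene. Lines mark the median (4.62) and 90th percentile (12.7) of all genes with at least 10 kb of such genome. The bars of Sox8 and Sox12 rise above the latter.

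Distal peaks per replicate were fewest in replicate 3 at every gene but Sox12. Sox6 had 71, 56 and 52 in replicates 1, 2 and 3 (59.7 ± 10, SD, n = 3) and Sox5 had 60, 60 and 42 (54 ± 10.4). Sox4 had 45, 42 and 29 (38.7 ± 8.5), and Sox9 had 29, 36 and 20 (28.3 ± 8.02). Neighbours in this order overlapped in their replicate values, as Sox6 with Sox5 and Sox4 with Sox9. Sox11 had 31, 27 and 15 (24.3 ± 8.33), Sox13 had 23, 22 and 11 (18.7 ± 6.66) and Sox8 had 19, 19 and 16 (18 ± 1.73). Sox12 had 4, 6 and 6 (5.33 ± 1.15). Replicate 3 had 0.586 times as many distal peaks over all genes as replicate 1. With an equal number of peaks from each replicate, Sox9 had 20, 20 and 20, Sox4 34, 30 and 29, and Sox11 16, 19 and 15. Under that setting replicate 3 was the highest at Sox5 (33, 33 and 42), Sox6 (39, 43 and 52) and Sox12 (4, 4 and 6).

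At Sox9 the strongest distal sites lay together downstream of the gene. Of its 16 sites, 6 lay upstream, all in the long non-coding gene BC006965, 5 lay in Sox9 itself and 5 lay between genes. The strongest, chr11:112811636-112811825, is 29412 bp downstream of the start, scored 142, 140 and 116, and stood above 98.9% of all distal sites in its mean rank. Its neighbour at chr11:112811236-112811465 scored 134, 120 and 98, and in both the lowest value was that of replicate 3. The farthest site within the limit, 88012 bp downstream, was weak, with scores of 53, 38 and 50. The sites upstream were weaker too, between 38 and 84 in all replicates.

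Every one of the 13 distal sites of Sox8 lay downstream, within 30409 bp of the start. Lmf1 starts 8.4 kb upstream of Sox8 and Sstr5 72.9 kb downstream, so the counting rule puts most of the 38.7 kb nearest to Sox8 downstream. The strongest, chr17:25561776-25561965, scored 144, 139 and 128, above 99.5% of distal sites, and lies 8249 bp downstream, within 1 kb of the start of the lincRNA AC131323.3. Others of high rank were an intronic site at chr17:25568296-25568505 (124, 121 and 124) and the farthest site, chr17:25539656-25539805 (127, 124 and 124), close to the start of another lincRNA. In both, the replicates differed by 3 units of score. Of the 13 sites, 5 ranked in the top 10% of all distal sites.

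The strongest distal sites of the SoxE genes are shown because they rank highest near these genes. They are 150 bases round the centre of the site, read from GRCm38 on the plus strand, 5′ to 3′. Capitals mark the SOX core on either strand, AP-1 motifs (TGANTCA) and, in Sox8, a homeobox motif (TAATTA).
Sox9 distal site, chr11:112811655-112811804, plus strand: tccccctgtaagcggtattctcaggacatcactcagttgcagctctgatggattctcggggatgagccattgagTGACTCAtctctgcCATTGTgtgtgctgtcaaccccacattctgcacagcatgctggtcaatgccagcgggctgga
Sox8 distal site, chr17:25561795-25561944, plus strand: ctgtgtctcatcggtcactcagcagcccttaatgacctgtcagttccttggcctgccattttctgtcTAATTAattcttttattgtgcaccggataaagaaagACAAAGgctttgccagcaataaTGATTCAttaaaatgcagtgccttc
Both windows hold a SOX core and an AP-1 motif, which are found in 26.4% and 20.9% of all reproducible distal sites.

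Sites around the SoxC genes lay on both sides of them. Sox4 had 22, with 11 upstream and 11 downstream, and 10 of them lay in the non-coding genes 2610307P16Rik, A330102I10Rik and Gm26735. Its strongest, chr13:28957916-28958085, 4203 bp upstream, scored 128, 113 and 107, and the farthest, 99168 bp downstream, scored 65, 64 and 41. A run of 5 sites lay between chr13:29014176 and 29016345, each within 1 kb of a start of the lincRNA A330102I10Rik. An intergenic site 35608 bp downstream of Sox4, at chr13:28917936-28918105, scored 132 and 122 in replicates 1 and 2 and 79 in replicate 3. Of the 14 sites of Sox11, 11 lay between genes. The strongest there was chr12:27294396-27294565, 48009 bp downstream, with scores of 137, 129 and 90, again lowest in replicate 3. The farthest of Sox11, chr12:27437796-27438125, lay 95222 bp upstream and scored 47, 37 and 59. The strongest site of Sox12 lies in its own exon, at chr2:152396256-152396405, scored 146, 141 and 143 and ranked above 99.9% of distal sites. A site 8133 bp upstream of Sox12, at chr2:152406196-152406365, scored 134, 134 and 135, a difference of 1 unit between replicates.

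Nearly all distal sites of Sox5 and Sox6 lay inside the genes themselves. For Sox6 it was 37 of 37, of which 36 were intronic, and for Sox5 25 of 28, of which 23 were intronic. The counting rule set this at Sox6: 1110004F10Rik starts 0.601 kb upstream, and the 100 kb limit downstream ends inside the gene. Of the 597 kb nearest to Sox5, only the part upstream of its first start, at most 100 kb, lies outside the gene. The strongest at Sox5, chr6:144710976-144711125, lies 70794 bp downstream of the most upstream promoter and scored 136, 124 and 94. That at Sox6, chr7:115722096-115722265, scored 123, 122 and 84. At both, replicate 3 had the lowest score. A second intronic site of Sox6, chr7:115751196-115751365, scored 119, 113 and 88. A run of 5 sites lay 5504 to 8144 bp upstream of promoter 5 of Sox6, which had no peak of its own. Its highest score in replicates 1 and 2 was at chr7:115866156-115866305 (116, 108 and 68) and in replicate 3 at chr7:115867656-115867865 (92, 78 and 81). In Sox5 a site at chr6:144021756-144021925, within 1 kb of a start of the antisense RNA Sox5os1, scored 122, 95 and 89. Sox13 had 9 sites, the strongest an intronic one at chr1:133397776-133398045 with scores of 117, 108 and 100, and 6 lay outside the gene. Another, chr1:133461076-133461265, 36699 bp upstream of Sox13, scored 123, 90 and 65. The farthest site of Sox13, 69079 bp upstream, scored 78, 76 and 77, that of Sox5, 98470 bp upstream of its promoter 4, 94, 87 and 67, and that of Sox6, 96071 bp downstream of its nearest start, 43, 35 and 28.

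The leading sites of Sox4, Sox5 and Sox6 are shown as they differ in motif content, again as 150 bases of GRCm38 on the plus strand. Capitals mark an RBPJ (GTGGGAA) and a CTCF motif in Sox4, an AP-1 motif in Sox5, and a SOX core, TTGGCA of NFI factors and TAATCC of OTX and CRX in Sox6.
Sox4 distal site, chr13:28957925-28958074, plus strand: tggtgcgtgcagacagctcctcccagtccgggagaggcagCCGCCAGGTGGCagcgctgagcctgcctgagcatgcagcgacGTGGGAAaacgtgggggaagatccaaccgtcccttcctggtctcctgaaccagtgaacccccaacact
Sox5 distal site, chr6:144710975-144711124, plus strand: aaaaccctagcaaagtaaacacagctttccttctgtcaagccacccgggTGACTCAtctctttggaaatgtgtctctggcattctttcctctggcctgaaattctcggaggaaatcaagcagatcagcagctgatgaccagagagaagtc
Sox6 distal site, chr7:115722105-115722254, plus strand: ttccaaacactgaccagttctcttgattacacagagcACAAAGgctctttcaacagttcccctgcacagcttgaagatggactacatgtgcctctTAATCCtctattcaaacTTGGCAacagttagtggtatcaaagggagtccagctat
The RBPJ and CTCF motifs are found in 4.2% and 4.7% of all reproducible distal sites, TTGGCA in 17.3% and TAATCC in 3.92%.

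The distance of distal sites from the start differed widely between the SOX genes, and taken as 1 set they lay farther out than distal sites in general. Neighbouring starts bound this distance. The closest lay 784 kb from Sox9, 521 kb from Sox4 and 869 kb from Sox11, so sites there could reach the limit of 100 kb. The comparison was not matched for the spacing of genes, and the part of spacing was not tested. Of the 143, 52 (36.4%) were over 50 kb away, against 18.9% of all distal sites, and 45 were within 10 kb. The median distance was 35023 bp, against 17854 bp for all distal sites. By gene it was 59311 bp at Sox5, 46816 at Sox4, 43556 at Sox11, 31380 at Sox6 and 19056 at Sox9, and lay below that of all sites at Sox8 (8249), Sox13 (5892) and Sox12 (3291). The share beyond 50 kb was 60.7% at Sox5, 50% at Sox4, 43.2% at Sox6, 25% at Sox9, 21.4% at Sox11 and 11.1% at Sox13, and 0% at Sox8 and Sox12, whose nearest neighbours, Lmf1 and Zcchc3, start 8.4 and 17 kb away. More sites followed beyond the limit of 100 kb with the SOX gene's start still the nearest: 67 at Sox9, reaching 803 kb, 43 at Sox4, 33 at Sox6, 31 at Sox11 and 28 at Sox5. The strongest of these at Sox9, chr11:113063196-113063385, lay 281 kb downstream and scored 141, 142 and 122, about as strong as the site at 29412 bp. At Sox4 the strongest, 156 kb upstream, scored 142, 132 and 121, above every site of Sox4 within the limit in each replicate. At Sox11 it lay 147 kb upstream (132, 122 and 104), at Sox5 306 kb downstream (140, 135 and 113) and at Sox6 257 kb downstream (125, 127 and 125).

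**Figure D4:**
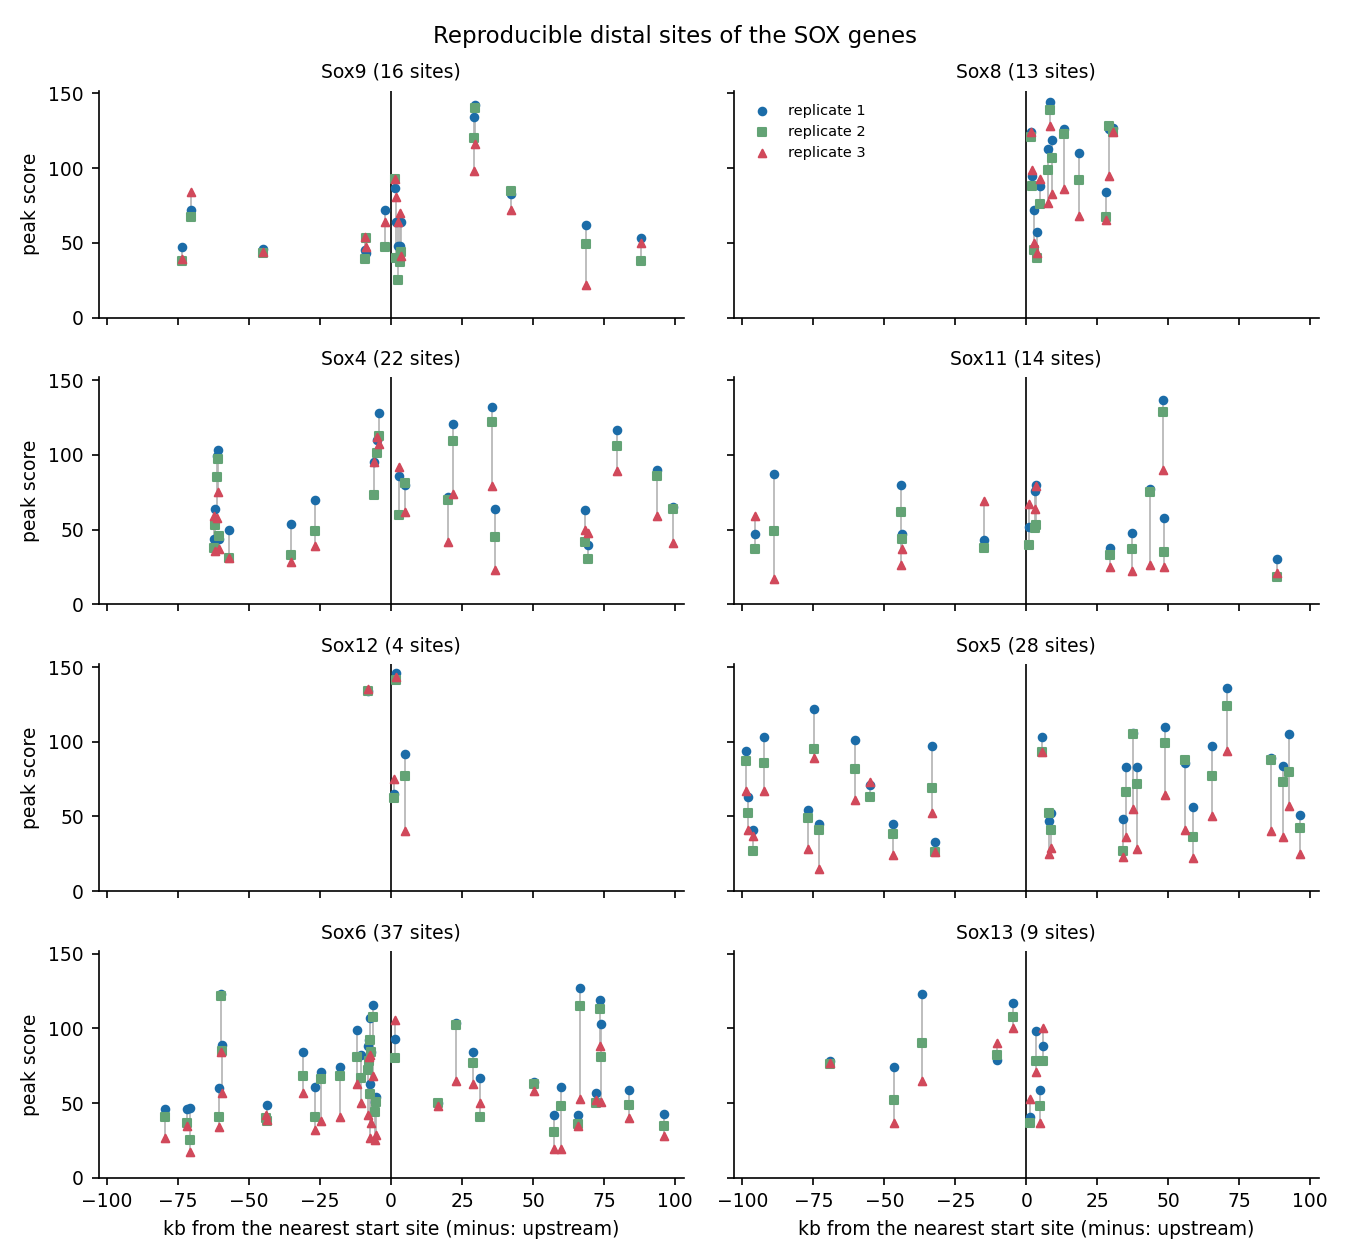
Reproducible distal sites of each SOX gene, with distance from the nearest start site in kb on the horizontal axis (negative values upstream) and the peak score on the vertical axis, 1 point per replicate joined by a line for each site. All 13 sites of Sox8 lie downstream, where most of the genome nearest to it lies, and the highest point at Sox9, downstream, is at 142.

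Distal regions were shared by the replicates about as often near the SOX genes as elsewhere. Of 346 merged distal regions near the 8 genes 143 (41.3%) were in all 3 replicates, against 39.7% of such regions near all genes, and 70 (20.2%) were in replicates 1 and 2 without replicate 3, against 27.3%. The latter share was 34% at Sox4 (17 of 50 regions) and 12.5% at Sox9 (5 of 40). Without replicate 3 the distal sites shared by the others numbered 39 at Sox4, 47 at Sox5, 22 at Sox11 and 14 at Sox13, each well above the number shared by all replicates (22, 28, 14 and 9), and 21 at Sox9; the mean over all genes moved from 4.03 to 6.81. Microglia and macrophage promoters are peaks of replicates 1 and 2 as well, and their part in these regions was not tested. The PU.1 motif GAGGAAGT, of a factor of that lineage, occurred in 3 of the 70 regions (4.29%) and in 3.68% of all regions of replicates 1 and 2 alone, compared with 1.4% and 1.32% of the sites in all replicates.

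The SOX core is the sequence that SOX proteins recognise. It occurred in 46 of the 143 distal sites (32.2%, 95% Wilson interval 25.1 to 40.2), against 26.4% of all 87518 distal sites, which lies inside that interval. By gene, the core was in 17 of 37 sites at Sox6, 12 of 28 at Sox5 and 3 of 9 at Sox13, the SoxD genes, and in 5 of 16 at Sox9 and 6 of 22 at Sox4. It was in 2 of 14 at Sox11, 1 of 13 at Sox8 and 0 of 4 at Sox12. Paired cores facing each other (ACAANG and CNTTGT with 3 to 5 bases between), a form on which SoxE proteins bind as dimers, were found in 2 sites (1.4%), 1 each at Sox5 and Sox6, and in 0.327% of all sites, below the interval of 0.384 to 4.96 that those 2 sites give. Intervals cover counting error only, and sites of a gene are not independent.

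Other motifs were compared with all distal sites in the same way. GGAATG of TEAD factors was in 22.4% of the SOX gene sites and 19.2% of all, TAATTA of homeobox factors in 8.39% and 6%, and GTGGGAA of RBPJ, the nuclear effector of Notch, in 4.9% and 4.2%. TTGGCA was in 12.6% and 17.3%, and the E-box CANNTG, which overlaps CAGCTG, in 53.1% and 59.6%. AP-1 was in 14% of the SOX gene sites (interval 9.24 to 20.6) and in 20.9% of all, above the interval, but in the 70 regions of replicates 1 and 2 alone it was in 22.9%, against 20.5% of all such regions. Both strands were searched, and the shares are descriptions without a test.

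**Figure D5:**
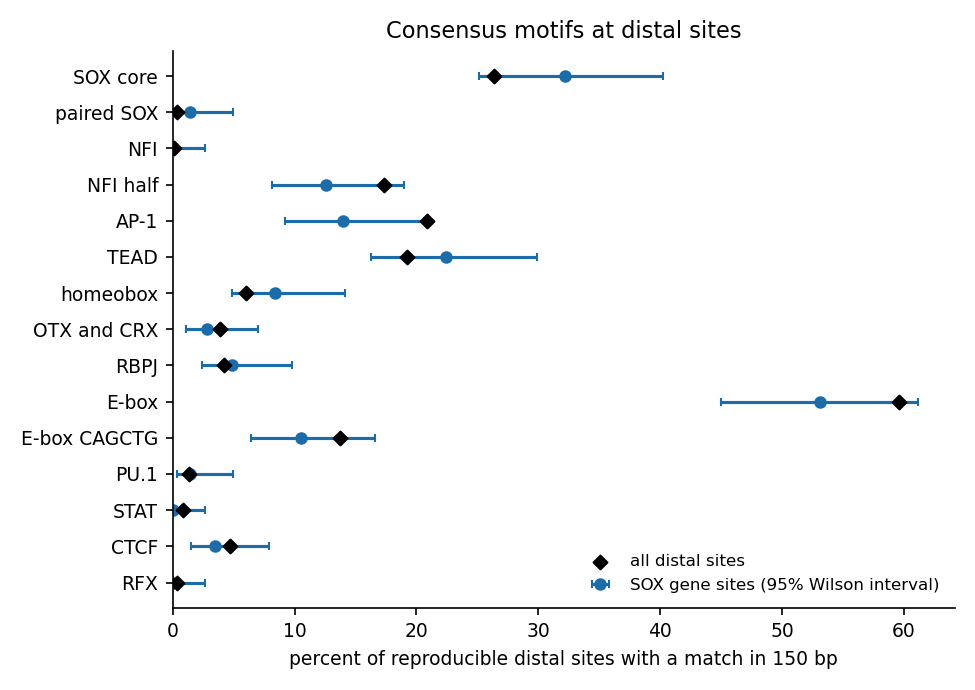
Share of reproducible distal sites with a match to each consensus motif in the 150 bases round the centre, as circles with 95% Wilson intervals for the 143 sites of the SOX genes and as diamonds for all 87518. The SOX core is at 32.2% and 26.4%, and the diamonds of AP-1 and of the paired SOX motif lie just outside their intervals, above and below.

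Among the remaining SOX genes, 7 of 11 had a reproducible promoter site. Sox2, the SoxB factor of neural stem cells and Müller glia, had promoter scores of 133, 131 and 130 and 45 distal sites, more than any of the 8 genes. Sox10, the SoxE gene of oligodendrocytes, had no promoter peak in any replicate although it belongs to the same group as Sox9 and Sox8, and Sox17, an endoderm and endothelial factor, had none either. Likeness was measured as the distance over 6 values, the percentile of the strongest promoter peak and of the number of distal peaks in each of the replicates. Sox9 and Sox4 were each other's closest SOX gene (distance 12.7), as were Sox5 and Sox13 (20.7). Sox6 and Sox11 were closest to Sox2 (11.8 and 12.4), and Sox8 to Sox11 (19.2). Sox12, closest to Sox8 at 49.5 had the largest distance to its closest gene among the 8.

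Genes known to act with or under these SOX factors were read as lists, beside the 68.3% of all genes with an open promoter. Among gliogenic partners and targets of SOX9, 10 of 10 were open with a median of 25.5 distal sites; they include Nfia (148, 143 and 142), a partner of SOX9 in gliogenesis, and Fabp7, a lipid-binding protein of radial glia (93, 88 and 94). Of 8 cartilage targets of SOX9, SOX5 and SOX6, 7 were open, with Col2a1, which encodes cartilage collagen, at 100, 89 and 92 and a median of 5 distal sites. Matn1, a cartilage matrix gene, was the exception, with a peak of 23 in replicate 1 only. Of 12 neuronal genes downstream of SoxC factors, 9 were open and the median was 3 distal sites. Stmn1, a microtubule regulator, had scores of 133, 132 and 137, while Dcx, a marker of migrating neurons, had no promoter peak. Nefl, a neurofilament gene, had peaks of 49, 30 and 60 that did not all overlap, and Neurod1 had 25 in replicate 1 only.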

How the data were processed

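DNase-seq was done on 3 replicates of primary Müller cells. The authors deposited, per library, lists of peaks and of hotspots on mm10; aligner, caller and read filtering were not given in the sources used here. The deposited peak value used is a score, a whole number from 1 to 150, which can saturate. The deposited hotspot value is a −log10 q capped at 100. No counts come with the lists, so depth is unknown and the SD over replicates is the only measure of precision for peaks.

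Peaks with repeated positions (21, 20 and 23), on Y or on unplaced scaffolds were left out. Peaks overlapping by 1 bp were merged, and all transcripts of protein-coding genes in GENCODE M21 gave the start sites, whose chromosome lengths are those of mm10. The score was ranked within each replicate; no test was run, since a single group has no contrast. Promoter windows are the last 150 bases before the RefSeq start, shortened where an annotated leader exon began. The scripts were tested on simulated data. Python 3.11.15, pandas 2.3.3, numpy 2.4.6, scipy 1.17.1, pysam 0.24.0 and matplotlib 3.10.9 were used.

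The genes, lists and motifs were chosen with earlier results of these data known; CCAAT and GC boxes were added after the sequences were seen. All 8 genes are named, with the strongest and farthest distal site of each, the 10 strongest of all 8 genes, and list genes whose promoter state differs from most of their list; other genes in the text were chosen after their values were seen. Alternatives covered replicates left out, equal and stronger peaks, overlap, windows, distance limits, coding starts and hotspots. Reference proteins were not used here. The rod marker list is not reported here.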

Additional observations from a re-analysis of the deposited data

How the results depend on the processing

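All 8 SOX genes kept a reproducible promoter site under every alternative tried, replicate 3 alone included. The 143 distal sites became 150 to 213 when 1 replicate was left out, with 213 without replicate 3, and 71 among the strongest 50% of peaks and 91 with a limit of 50 kb; these last 2 settings use fewer peaks and less genome. Other settings gave 114 (hotspots) to 209 (limit of 200 kb), and replicate 3 alone, an alternative chosen after seeing the data, gave 188. Sox5 had 16 sites in place of 28 when the starts of coding transcripts alone were used, Sox9 had 9 in place of 16 and Sox8 8 in place of 13 with hotspots, and Sox11 had 3 in place of 14 among the strongest peaks. The order of the genes changed too. With a limit of 50 kb, Sox8 (13) and Sox9 (12) stood above Sox5 and Sox4 (11 each) and below Sox6 (21). Among the strongest peaks, Sox8, Sox4 and Sox5 had 12 each and Sox6 17. With coding starts alone, Sox9 and Sox5 had 16 each. With hotspots, Sox5 (31) stood above Sox6 (29). The SOX core share of 32.2% was 31.3% to 33.8% with 1 replicate left out, 23.1% in windows of 100 bp (18.9% of all sites) and 39.9% in windows of 200 bp (32.6% of all sites), since a shorter window holds fewer words. Of the promoter scores only Sox12 moved, from a mean of 126 to 121 with a 500 bp window and 143 with a 2500 bp window. The mean distal peaks per replicate were less stable over limits of 50 and 200 kb and equal numbers of peaks. They moved by more than the SD between replicates in 12 comparisons and stayed within it in 12. With 50 kb, Sox5 went from 54 to 24.3, Sox6 from 59.7 to 36.3 and Sox4 from 38.7 to 20.3. With 200 kb, Sox4 rose to 71.7. Read depth is unknown, so a peak missing from replicate 3 may lie below what that library could detect. No paired analysis was possible because the replicates form a single group with no contrast.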
